A study of Mus musculus with 16 samples.

Results

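Heparan sulphate is a long sugar chain carried on cell surface and matrix proteins, and 10 of the genes whose products build and modify it are described here in the mouse dorsal hippocampus. They are Extl1, the other exostosins Ext1, Ext2, Extl2 and Extl3, and 5 sulphotransferases, Ndst1, Ndst3, Hs6st2, Hs3st2 and Hs3st4. They were found by symbol among 55385 deposited Ensembl gene identifiers, and all 10 were among the 16899 genes with enough counts to test. The list was chosen with measured values known. Extl1 was chosen by its lower level under Dnmt3a2 at 1 day in an earlier analysis of these libraries, so the differences of all 10 genes at 1 day are a description with no test, as is every comparison of Extl1 that uses the 1 day libraries. At 5 days the same genes were measured in other libraries and were tested, but the results of that day were also known when the list was made, so the 5 day tests are not those of a list chosen without them.

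Mice had received a recombinant adeno-associated virus in the dorsal hippocampus that carried GFP (Control) or exogenous Dnmt3a2. This is the shorter isoform of Dnmt3a, an enzyme that places new methyl groups on DNA. All groups were conditioned to a context 3 weeks later, and tissue was taken 1 or 5 days after that, with 4 libraries in each of Control_1d, Dnmt3a2_1d, Control_5d and Dnmt3a2_5d. The labels give no strain, sex, age or viral promoter. They also leave unsaid whether the 4 libraries of a group are from 4 animals, and the p-values below measure only how these libraries vary. Dissected tissue was sequenced as a whole, with transduced and untransduced cells together, so that fewer cells of a type and less RNA per cell cannot be told apart.

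Exostosins extend the chain by adding glucuronic acid and N-acetylglucosamine in turn. Sulphotransferases then place sulphate groups along it, and the resulting pattern sets which growth factors, morphogens and synaptic adhesion proteins the chain can bind. In the brain these chains sit on syndecans, glypicans and neurexins, among other proteins, and take part in axon guidance and synapse formation.

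CPM below means counts relative to the library total after TMM scaling. Total estimated counts were 28.6 to 30 M per library. Dnmt3a, the gene supplied by the virus, was at 32.7 to 37.7 CPM in the 8 Control libraries and at 623 to 1249 CPM in the 8 Dnmt3a2 libraries. The 12 lists of markers of regions, cell types and the interferon response held 112 symbols. Of these 111 were matched, and 0 of them were at a count of 0 in any library, so hippocampal and neocortical neurons, glia, vessels and choroid plexus were all represented. Replicate 1 of Dnmt3a2_1d and of Dnmt3a2_5d stood apart by summed choroid plexus markers, at 1170 and 1810 CPM against 126 to 365 CPM elsewhere. These replicates and replicate 1 of Control_1d also stood apart by interferon response genes, at 77.7 to 124 CPM against 36.3 to 54.4 CPM elsewhere.

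Extl1 (ENSMUSG00000028838, GRCm38 chr4:134356372-134383850, minus strand) and Hs3st4 (ENSMUSG00000078591, chr7:123982869-124398989, plus strand) are shown by the 250 bases before their RefSeq transcription starts (GRCm38.p6). Extl1 is shown because its libraries separated by virus, and Hs3st4, the most abundant of the 10 genes per kb, because its window is the richest of theirs in CpG, the dinucleotide that Dnmt3a methylates. Capitals mark each CG, which reads the same on both strands. The window of Extl1 is chr4:134372548-134372797 and that of Hs3st4 is chr7:123982578-123982827. The gene bounds of Extl1 reach further upstream than the RefSeq start used here.
Extl1: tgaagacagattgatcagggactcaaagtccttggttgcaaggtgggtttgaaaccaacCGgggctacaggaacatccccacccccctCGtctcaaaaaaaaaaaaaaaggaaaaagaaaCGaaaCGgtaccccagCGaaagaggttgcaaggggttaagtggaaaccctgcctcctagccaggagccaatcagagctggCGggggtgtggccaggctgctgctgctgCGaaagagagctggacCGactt
Hs3st4: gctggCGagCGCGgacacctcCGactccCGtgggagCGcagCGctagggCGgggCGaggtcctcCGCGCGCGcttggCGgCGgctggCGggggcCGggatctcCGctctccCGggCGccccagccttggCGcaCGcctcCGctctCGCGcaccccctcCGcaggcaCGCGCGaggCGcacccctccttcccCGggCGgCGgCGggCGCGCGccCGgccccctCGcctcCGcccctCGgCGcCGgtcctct

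The window of Extl1 held 8 CG and that of Hs3st4 held 43 CG. Over 32851 RefSeq windows of the same length the median was 6, the quartiles were 2 and 16, and 92.1% held at least 1. As many or fewer than in Extl1 were found in 59.7% of windows, and as many or more than in Hs3st4 in 0.712%. In all, 7 of the 10 genes matched, with 10 starts. Ext2 had 12 CG, Hs3st2 had 17, Extl2 had 30 and 4 at its separate starts, Hs6st2 had 26 and 7, and Ndst3 had 3 and 1. Ext1, Extl3 and Ndst1 had no entry. Methylation itself was not measured here, and these counts describe the letters only.

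Extl1 encodes an exostosin-like glycosyltransferase with N-acetylglucosamine transferase activity. Its level was 89.2, 93.9, 92.1 and 86.1 CPM in the libraries of Control_1d and 73.6, 76.6, 71.6 and 74.5 CPM in those of Dnmt3a2_1d. At 5 days it was 83.4, 84.5, 87.9 and 90.5 CPM in Control_5d and 73.1, 77.0, 76.3 and 76.1 CPM in Dnmt3a2_5d. All 8 Control libraries lay above all 8 Dnmt3a2 libraries, with 83.4 CPM the lowest of the former and 77.0 CPM the highest of the latter. Groups of 8 also did not overlap for 68 of the genes tested (0.402%), a count that includes the 1 day libraries by which Extl1 was chosen.

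The difference of Extl1 between Dnmt3a2 and Control at 1 day, given as a description, was -0.29 on the log2 scale (SE 0.05), or -18%. At 5 days the means were 75.6 ± 1.73 CPM with Dnmt3a2 and 86.6 ± 3.25 CPM in Control (SD, n = 4 each), a difference of -0.20 (SE 0.05), or -12.6%. The groups did not overlap, as was so for 6.29% of all genes tested at 5 days. An exact two-sided permutation test gave p = 0.0286, the smallest that 70 regroupings allow. Any gene without overlap between groups of 4 gets this p, so it adds nothing to the lack of overlap. In the fit across all genes, however, edgeR's quasi-likelihood test gave a Benjamini-Hochberg adjusted p of 0.08, so that Extl1 was not called at 0.05. It ranked 89 by p, and 0.32% of genes were called. DESeq2's Wald test on the same counts called it, among 143 genes against 54 by edgeR. The difference of Extl1 was again -0.20, with a DESeq2 adjusted p of 0.00368. Over 27 alternative fits the adjusted p ran from 0.00368 to 0.316.

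Leaving out the 3 libraries rich in interferon response genes gave a difference of -0.18 for Extl1 at 5 days (edgeR adjusted p = 0.167), and leaving out the 2 rich in choroid plexus markers gave -0.18 (edgeR adjusted p = 0.169). At 1 day the same fits gave -0.29 and -0.28. The difference at 5 days minus that at 1 day was 0.09 (SE 0.07), also a description. Extl1 was at 90.4 ± 3.41 CPM in Control_1d and 74.1 ± 2.07 CPM in Dnmt3a2_1d (SD, n = 4 each). Between days it differed by -0.06 (SE 0.05) in Control and by 0.03 (SE 0.05) with Dnmt3a2. Summed dentate granule cell markers also did not overlap at 5 days, at 754 to 869 CPM in Control and 709 to 752 CPM with Dnmt3a2, but they overlapped at 1 day, at 683 to 853 CPM and 708 to 846 CPM. The sum was not shared by the 10 genes of the list. At 5 days C1ql2 was lower with Dnmt3a2, with a median of 127 CPM against 195 CPM in Control, Dsp was also lower without overlap, Calb1 was higher without overlap, at 130 to 143 CPM against 99.8 to 111 CPM, and the other 7 genes, Prox1 among them, overlapped. Without C1ql2, a choice made after its values were seen, the sums overlapped, at 583 to 655 CPM in Control and 573 to 625 CPM with Dnmt3a2. Calb1, which went the other way, stayed in that sum. Whether granule cell content differed was not tested. The sums of the other 11 lists overlapped between the virus groups at both days.

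**Figure D1:**
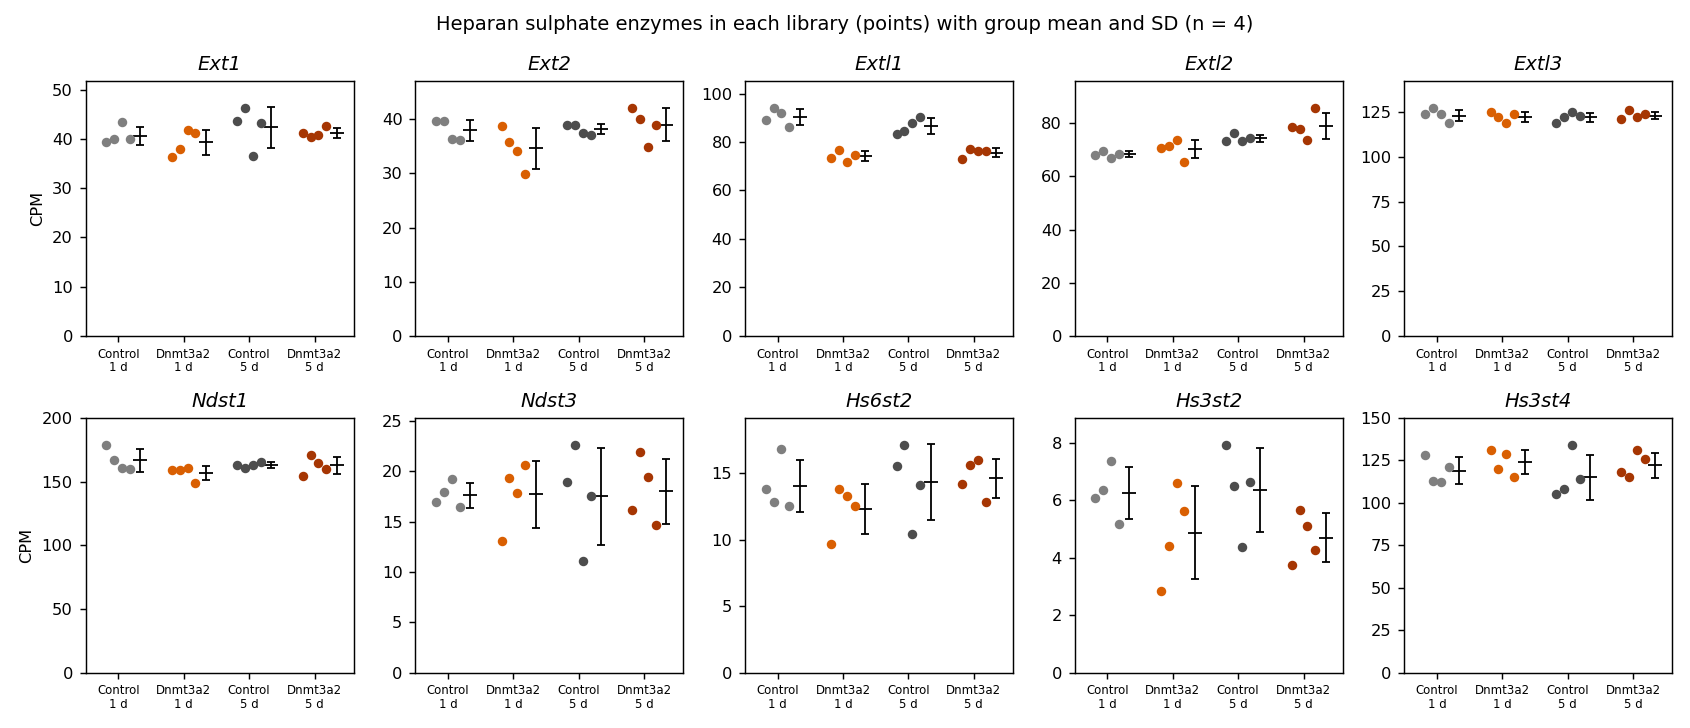
CPM (y axis, from 0) of each of the 10 heparan sulphate enzymes in each library (points) by group (x axis), with the group mean and SD (n = 4) beside the points. For Extl1 all Control points, 83.4 to 93.9 CPM, lie above all Dnmt3a2 points, 71.6 to 77.0 CPM, and in the other 9 panels the Control and Dnmt3a2 points of each day overlap.

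Ext1 and Ext2 together form the polymerase that elongates the chain. Ext1 was at 39.4, 39.9, 43.4 and 39.9 CPM in Control_1d, 36.4, 37.9, 41.8 and 41.1 CPM in Dnmt3a2_1d, 43.6, 46.2, 36.5 and 43.3 CPM in Control_5d, and 41.1, 40.3, 40.8 and 42.6 CPM in Dnmt3a2_5d. Libraries of each group lay among those of the others, and the difference with Dnmt3a2 was -0.05 (SE 0.07) at 1 day and -0.04 (SE 0.07) at 5 days (edgeR adjusted p = 0.951). Ext2 had its lowest level, 29.8 CPM, in Dnmt3a2_1d replicate 4 and its highest, 42.0 CPM, in Dnmt3a2_5d replicate 1. Its difference was -0.13 (SE 0.07) at 1 day, or -0.07 without Dnmt3a2_1d replicate 4, and 0.03 (SE 0.07) at 5 days (edgeR adjusted p = 0.962).

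Extl2 and Extl3 are thought to act where the chain begins. Extl3 adds the first N-acetylglucosamine that commits a linkage sugar to heparan sulphate, and Extl2 can end that linkage by adding N-acetylglucosamine to its phosphorylated form. Extl3 was the steadiest of the 10 genes, at 119 to 127 CPM with a coefficient of variation of 2.03% over 16 libraries. Its difference with Dnmt3a2 was -0.01 (SE 0.04) at 1 day and 0.01 (SE 0.04) at 5 days (edgeR adjusted p = 0.973). Extl2 was at 68.2, 69.7, 66.9 and 68.4 CPM in Control_1d and 73.5, 76.3, 73.3 and 74.4 CPM in Control_5d. With Dnmt3a2 it was at 70.6, 71.4, 73.7 and 65.3 CPM at 1 day and 78.4, 77.7, 73.8 and 85.6 CPM at 5 days. All libraries of 5 days lay above those of 1 day with the same virus.

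The difference of Extl2 between 5 days and 1 day was 0.12 (SE 0.05) in Control and 0.17 (SE 0.05) with Dnmt3a2. Neither passed the test, with an edgeR adjusted p = 0.999 in Control and 0.314 with Dnmt3a2. Libraries of the days did not overlap for 2.4% of genes tested in Control and 5.17% with Dnmt3a2, while edgeR called 0% of genes in either. At an unadjusted p under 0.05 there were 598 genes in Control and 1822 with Dnmt3a2. DESeq2's Wald test called 0 genes in Control and 44 with Dnmt3a2, and 0 of the 10 enzymes in either. Between the virus groups Extl2 differed by 0.04 (SE 0.05) at 1 day and 0.08 (SE 0.05) at 5 days (edgeR adjusted p = 0.765). Ext2 between days with Dnmt3a2 differed by 0.17 (SE 0.07), with an edgeR adjusted p = 0.412, and its groups overlapped. Summed astrocyte and oligodendrocyte markers were lower at 5 days than at 1 day with Dnmt3a2, without overlap. Astrocyte markers were at 3950 to 4360 CPM at 1 day and 3610 to 3930 CPM at 5 days, and oligodendrocyte markers at 4070 to 6040 CPM and 3330 to 4030 CPM. The other lists overlapped between days, as did all lists in Control. The part of cell content in these differences was not tested.

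Ndst1 and Ndst3 are N-deacetylase/N-sulphotransferases, which replace acetyl by sulphate groups in the first modification of the chain. Ndst1 was at 179, 167, 161 and 160 CPM in Control_1d, 159, 159, 161 and 149 CPM in Dnmt3a2_1d, 163, 161, 163 and 166 CPM in Control_5d, and 155, 171, 165 and 160 CPM in Dnmt3a2_5d. The 1 day groups overlapped at 160 to 161 CPM, and the difference with Dnmt3a2 was -0.09 (SE 0.05) at 1 day. At 5 days the means were 163 ± 6.97 CPM with Dnmt3a2 and 163 ± 2.27 CPM in Control (SD, n = 4 each; edgeR adjusted p = 0.996). Ndst3, the member of this family most tied to the brain, was at 16.9, 17.9, 19.2 and 16.4 CPM in Control_1d, 13.1, 19.3, 17.8 and 20.6 CPM in Dnmt3a2_1d, 18.9, 22.6, 11.1 and 17.5 CPM in Control_5d, and 16.1, 21.9, 19.4 and 14.7 CPM in Dnmt3a2_5d. It varied within groups more than between them, and its difference was 0.01 (SE 0.19) at 1 day and 0.04 (SE 0.19) at 5 days (edgeR adjusted p = 0.985). Without Control_5d replicate 3 the 5 day difference was -0.13.

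Hs6st2 adds sulphate at the 6-O position of glucosamine. It was at 13.8, 12.8, 16.8 and 12.5 CPM in Control_1d, 9.65, 13.8, 13.3 and 12.5 CPM in Dnmt3a2_1d, 15.5, 17.1, 10.4 and 14.1 CPM in Control_5d, and 14.2, 15.6, 16 and 12.8 CPM in Dnmt3a2_5d. The lowest libraries were those where Ndst3 was lowest too, Dnmt3a2_1d replicate 1 and Control_5d replicate 3. The difference was -0.18 (SE 0.14) at 1 day, where it was -0.08 without Dnmt3a2_1d replicate 1 and likewise without Control_1d replicate 3. At 5 days it was 0.03 (SE 0.14; edgeR adjusted p = 0.98), and -0.09 without Control_5d replicate 3.

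Hs3st2 and Hs3st4 add the rare 3-O sulphate, the last modification of the chain, and both are known as neuronal members of their family. Hs3st2 was at 6.09, 6.37, 7.38 and 5.17 CPM in Control_1d, 2.85, 4.41, 6.61 and 5.62 CPM in Dnmt3a2_1d, 7.92, 6.51, 4.37 and 6.65 CPM in Control_5d, and 3.76, 5.66, 5.11 and 4.27 CPM in Dnmt3a2_5d. Its means were lower with Dnmt3a2 on both days, but the libraries overlapped. The difference was -0.36 (SE 0.22) at 1 day, where it was -0.17 without Dnmt3a2_1d replicate 1, and -0.44 (SE 0.22) at 5 days, with an edgeR adjusted p = 0.652. Hs3st4 was at 128, 113, 112 and 121 CPM in Control_1d, 131, 120, 129 and 115 CPM in Dnmt3a2_1d, 105, 108, 134 and 114 CPM in Control_5d, and 118, 115, 131 and 126 CPM in Dnmt3a2_5d. It differed by 0.06 (SE 0.07) at 1 day and 0.08 (SE 0.07) at 5 days (edgeR adjusted p = 0.864).

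As a group, 7 of the 10 enzymes were below 0 at 1 day with a median of -0.067, beside 49.1% of all genes and a median of 0.003. At 1 day 1 of the 10, Extl1, had groups that did not overlap, beside 3.43% of all genes, and 0.0888% of genes were called by edgeR. At 5 days 4 were below 0 with a median of 0.023, beside 47.2% of all genes and a median of 0.008. edgeR called 0 of the 10 at 5 days, beside 0.32% of all genes. At an unadjusted p under 0.05 there was 1 of the 10, beside 8.01% of all genes. DESeq2 called 1, beside 143 of all 16899 genes. In both cases the 1 was Extl1.

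**Figure D2:**
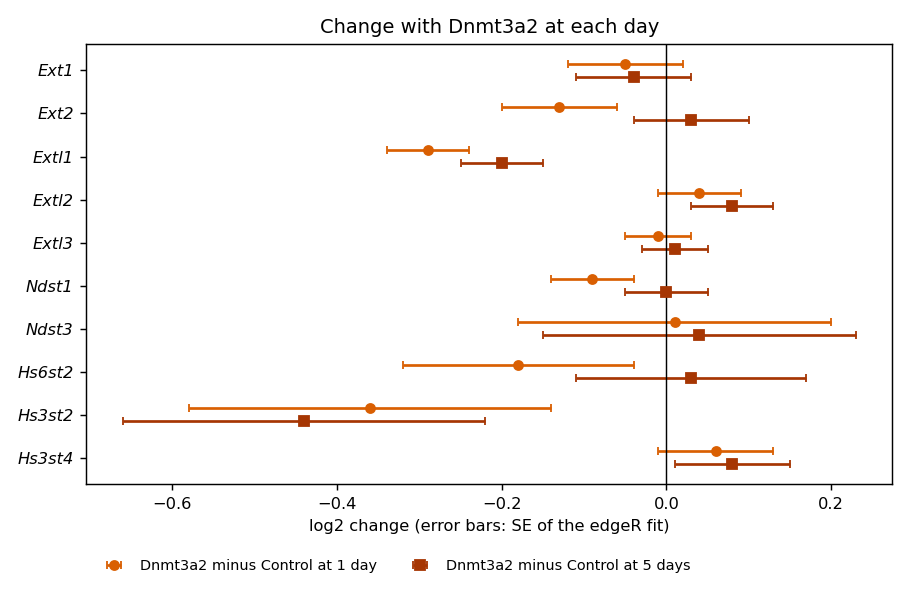
log2 change (x axis) of each of the 10 enzymes (y axis) with Dnmt3a2 at 1 day (circles) and at 5 days (squares), with the SE of the edgeR fit as bars. Extl1 lies at -0.29 and -0.20 with an SE of 0.05, and Hs3st2 at -0.36 and -0.44 with an SE of 0.22.

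Per kb of exon, levels fell into 4 separate ranges over the 16 libraries. Hs3st4 was highest, at 37.6 ± 2.8 CPM per kb (SD, n = 16), above 93.1% of tested genes. Extl2, Extl3, Ndst1 and Extl1 followed at 21.2, 20.3, 19.6 and 18.8 CPM per kb, with overlapping ranges between neighbours. Ext2 and Ext1 were at 5.11 and 5.06 CPM per kb, and Hs3st2, Ndst3 and Hs6st2 at 1.82, 1.79 and 1.77 CPM per kb, again with overlap between neighbours. With the longest coding transcript as the length, a choice added after seeing the data, Ext2 was at 13, Ndst1 at 25.1, Extl2 at 24.3, Ndst3 at 3.18, Hs6st2 at 3.17 and Hs3st2 at 2.44 CPM per kb. Ndst1 was then second and Hs3st2 lowest, and Ext2 stood further from Ext1, at 5.34 CPM per kb. Hs3st2 and Hs3st4 share 276 and 130 exonic bases with antisense genes, which were at 0.019 and 0.893 CPM. The strand of the counting was not given in the sources used here, so reads from such pairs cannot be told apart.

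**Figure D3:**
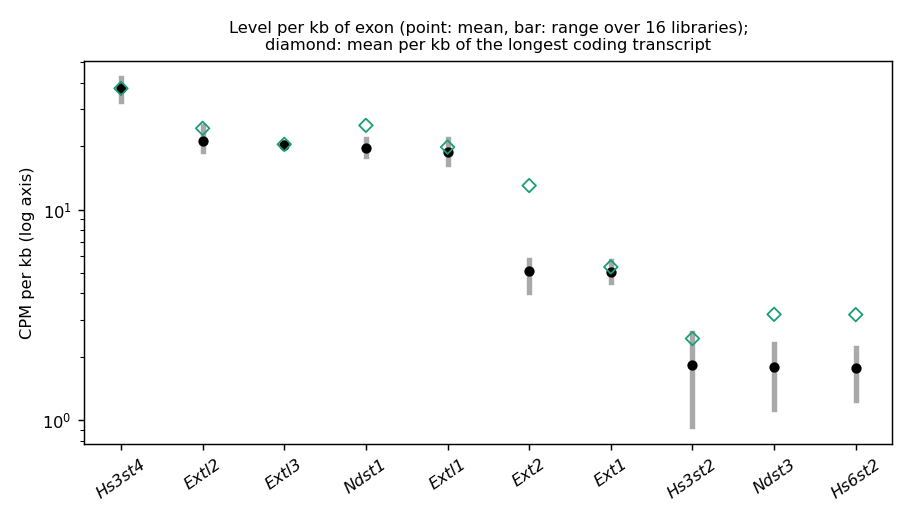
Level of each enzyme in CPM per kb (y axis, log scale) as the mean over 16 libraries (points) with the range (bars), per kb of exon, and as the mean per kb of the longest coding transcript (diamonds). Hs3st4 stands above the rest at 37.6 CPM per kb, and Ext2 moves most between the lengths, from 5.11 to 13 CPM per kb.

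Hs3st2, Ndst3 and Hs6st2 varied most across libraries, with coefficients of variation of 24.8%, 17.1% and 15.1%, against 9.29% for Extl1 and 4.16% for Ndst1. Relations of log2 CPM over the 16 libraries were computed for the 45 pairs of enzymes and for each enzyme with 4 lists of regional markers, 85 in all, and their permutation p-values were adjusted over the 85. Pearson's r passed in 12, and both r and Spearman's rho in 4. Hs6st2 was higher where the summed neocortex markers were higher (r = 0.81, permutation p = 0.00016, adjusted p = 0.00623; rho = 0.76, permutation p = 0.00092, adjusted p = 0.0232), and r was 0.73 without the 2 libraries farthest from the median. Ndst3 did so too (r = 0.67, permutation p = 0.00488, adjusted p = 0.0377; rho = 0.76, permutation p = 0.00109, adjusted p = 0.0232), with r = 0.65 without those 2. Leaving out the 3 interferon-rich libraries left r = 0.57 for Ndst3, at a permutation p of 0.05. The genes of the neocortex list differed in level and in spread. Over all libraries Tshz2 ran from 12.1 to 87.4 CPM, Fezf2 from 31.4 to 60.0 CPM and Lmo4 from 164 to 218 CPM. Cux2 ran only from 20.4 to 25.9 CPM. Relations with single markers were not tested, so a relation with the sum need not hold for each gene in it.

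The 3-O sulphotransferases went opposite ways with the markers of CA3 and CA2 pyramidal cells. Hs3st4 was higher where these were higher (r = 0.75, permutation p = 0.00112, adjusted p = 0.0159; rho = 0.79, permutation p = 0.00055, adjusted p = 0.0232), and Hs3st2 was lower (r = -0.76, permutation p = 0.00073, adjusted p = 0.0133; rho = -0.81, permutation p = 0.00034, adjusted p = 0.0232). Without the 2 farthest libraries r was 0.71 and -0.76. With each group's mean subtracted r was 0.79 and -0.68, and for Hs6st2 and Ndst3 with neocortex 0.85 and 0.73. Hs3st2 was also higher with the neocortex markers, by r = 0.80 (permutation adjusted p = 0.00623), but did not pass by rho (0.69, permutation adjusted p = 0.0646). Ndst3 and Hs6st2 were lower with the CA3 and CA2 markers, at r = -0.66 and -0.56 (permutation adjusted p = 0.0377 and 0.1), and did not pass by rho. With group means subtracted their r was -0.89 and -0.83. Summed CA3 and CA2 markers were at 515 to 636 CPM in Control_5d and 583 to 664 CPM in Dnmt3a2_5d. Neocortex markers were at 733 to 795 CPM and 715 to 782 CPM, so both overlapped between the virus groups. For CA3 and CA2 markers the overlap came from Control_5d replicate 3 alone, at 636 CPM. The other Control_5d libraries, at 515 to 536 CPM, lay below all of Dnmt3a2_5d. Within this list Cpne9 and Rgs14 were higher with Dnmt3a2 at 5 days without overlap, and its other genes overlapped. The markers come from the same libraries as the enzymes, and the part of the dissected regions in these levels was not tested.

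No pair of enzymes passed by both coefficients. Ndst3 and Hs6st2 came closest (r = 0.81, permutation p = 0.00022, adjusted p = 0.00623; rho = 0.68, permutation p = 0.00456, adjusted p = 0.0646), with r = 0.60 without the 2 farthest libraries and 0.90 with group means subtracted. In Control_5d replicate 3 and Dnmt3a2_1d replicate 1 Ndst3 was at 11.1 and 13.1 CPM and Hs6st2 at 10.4 and 9.65 CPM. Ndst4, of the same family as Ndst3 and named after its values were seen, was also lowest in those, at 25.8 and 27.5 CPM, against 28.6 to 49.9 CPM elsewhere. Those libraries had CA3 and CA2 markers of 636 and 646 CPM, among the 3 highest with Dnmt3a2_5d replicate 4 at 664 CPM. The relations of Extl1 use the 1 day libraries by which it was chosen, so they are a description with no test, though they count among the 85. Its r with dentate granule, CA1, CA3 and CA2, and neocortex markers was 0.39, 0.53, -0.48 and 0.36, with rho of 0.49, 0.52, -0.53 and 0.34.

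**Figure D4:**
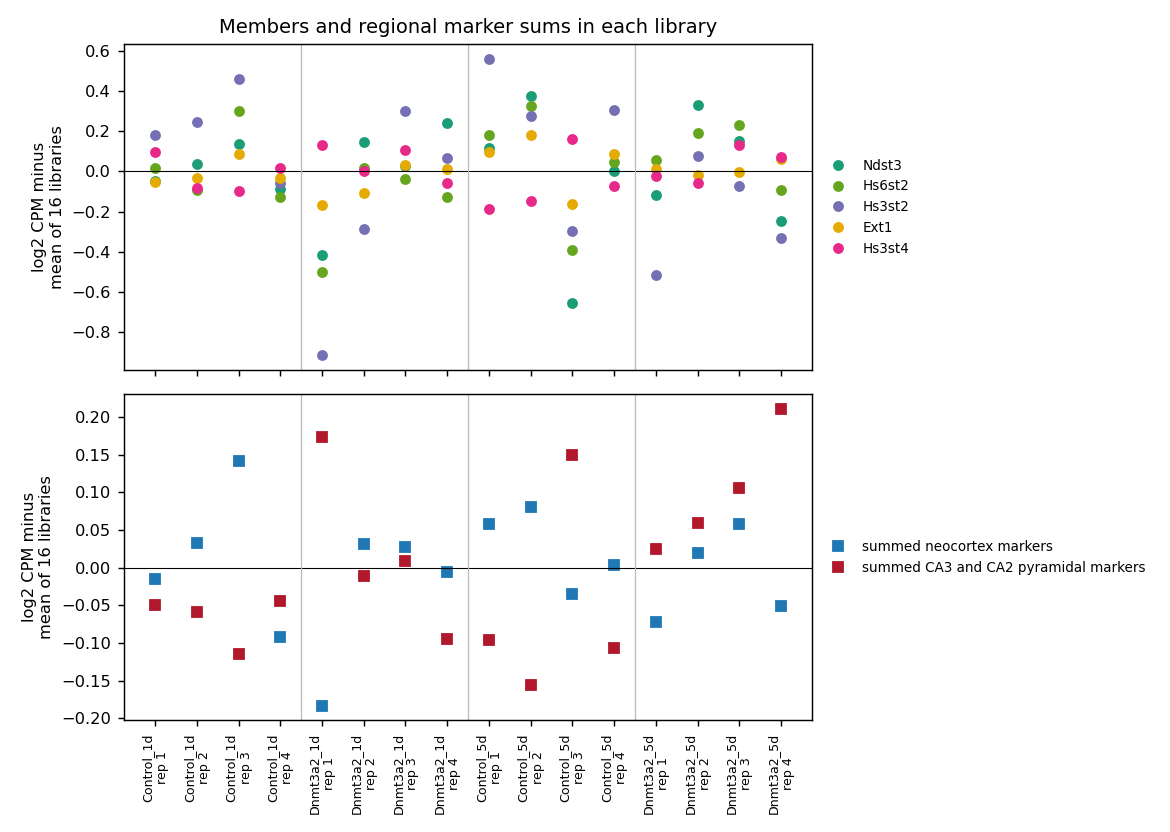
log2 CPM minus the mean of the 16 libraries (y axis) for 5 enzymes (upper panel) and for summed neocortex and CA3 and CA2 markers (lower panel) in each library (x axis, grouped by virus and day). In Dnmt3a2_1d replicate 1 and Control_5d replicate 3, Ndst3, Hs6st2 and Hs3st2 are low while Hs3st4 and the CA3 and CA2 markers are high.

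The genes whose level over the 16 libraries was most like that of Extl1, among 13278 protein-coding genes averaging 1 CPM or more, were Ciapin1 (r = 0.925), Hkdc1 (r = 0.923), 4930539E08Rik (r = 0.919), Umodl1 (r = 0.908) and Actr3b (r = 0.896). With each group's mean subtracted they were Smad3 (r = 0.852), Ntf3 (r = 0.838), Add1 (r = 0.831), Pum2 (r = 0.827) and Dlg3 (r = 0.81). None was in both sets. These values are a ranking over all genes, given with no test.

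The rest of the pathway was followed in 53 other genes, 51 of them tested. edgeR called 0 at either day, beside 0.0888% of all genes at 1 day and 0.32% at 5 days. At an unadjusted p under 0.05 there were 9 at 1 day, 8 of them lower with Dnmt3a2, beside 7.17% of all genes, and 4 at 5 days, 2 of them lower, beside 8.01% of all genes. Among all genes at that p, 46.0% were lower at 1 day and 50.4% at 5 days. At 1 day 31 of the 51 were below 0 with a median of -0.032, beside 49.1% of all genes, and at 5 days 33 were above 0 with a median of 0.054, beside 52.8% of all genes. DESeq2 called 0 of the 51 at 1 day and 1 at 5 days, beside 59 and 143 of all 16899 genes.

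That gene was Pxylp1, the phosphatase that removes the phosphate from the xylose of the linkage so that the chain can grow. It was at 15.2, 16.2, 18.2 and 14.7 CPM in Control_1d and 13.8, 13.2, 12.7 and 13.1 CPM in Dnmt3a2_1d, and at 16.8, 18.3, 17.0 and 18 CPM in Control_5d and 15, 14.3, 12.4 and 13.9 CPM in Dnmt3a2_5d. Neither day's groups overlapped. The same was so for 4 of the 51 genes at each day, Pxylp1 included, beside 3.43% of all genes at 1 day and 6.29% at 5 days. The difference was -0.28 (SE 0.08) at 1 day (edgeR adjusted p = 0.257) and -0.33 (SE 0.08) at 5 days (edgeR adjusted p = 0.0624, DESeq2 adjusted p = 0.0115). Without the 3 interferon-rich libraries it was -0.37 at 5 days (edgeR adjusted p = 0.046), and -0.37 (edgeR adjusted p = 0.045) when the 2 choroid-rich ones were left out. Leaving out Control_1d replicate 3 gave an edgeR adjusted p of 0.0353.

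Among the enzymes of the linkage, 7 of 7 were below 0 at 1 day and 3 of 7 at 5 days, beside 49.1% and 47.2% of all genes. B3gat3, which adds its glucuronic acid, and Fam20b, the xylose kinase, were the most abundant per kb at 51.3 and 10.9 CPM per kb, with differences of 0.05 and -0.02 at 5 days (edgeR adjusted p = 0.923 and 0.961). Of the other modifying enzymes 9 of 10 were below 0 at 1 day and 7 of 10 at 5 days, beside the same shares of all genes. Hs6st1, a 6-O sulphotransferase like Hs6st2, and Hs3st1, a 3-O sulphotransferase, were at 15 and 10.2 CPM per kb and differed by -0.05 and 0.13 at 5 days (edgeR adjusted p = 0.916 and 0.88). Hs2st1, the 2-O sulphotransferase, had the smallest p of that list at 5 days, with a difference of -0.09 (edgeR adjusted p = 0.804).

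Sulf2, which removes 6-O sulphate outside the cell, was at 24.8 CPM per kb, against 0.287 CPM per kb for Sulf1. Sulf2 was at 164, 169, 155 and 151 CPM in Control_5d and 145, 154, 142 and 136 CPM in Dnmt3a2_5d, which overlapped between 151 and 154 CPM, with a difference of -0.15 (SE 0.08; edgeR adjusted p = 0.722). At 1 day it differed by -0.24 (SE 0.08; edgeR adjusted p = 0.433), and by -0.11 without the 3 interferon-rich libraries. Papss1, which makes the sulphate donor, and Bpnt1, which breaks down its by-product, were at 18.5 and 14.3 CPM per kb and differed by -0.07 and 0.06 at 5 days (edgeR adjusted p = 0.832 and 0.911).

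Of the core proteins that carry the chain, 14 of 17 were above 0 at 5 days and 11 of 17 at 1 day, with none called. Of all genes 52.8% were above 0 at 5 days and 50.9% at 1 day. Nrxn2, a presynaptic adhesion protein, was at 407, 418, 436 and 448 CPM in Control_5d and 484, 478, 470 and 485 CPM in Dnmt3a2_5d. Its 5 day groups did not overlap, as was so for 6.29% of all genes. The difference of Nrxn2 was 0.17 (SE 0.05, edgeR adjusted p = 0.22). Syndecan Sdc3 and glypican Gpc1 were at 41.2 and 41.0 CPM per kb and differed by 0.00 and 0.21 at 5 days (edgeR adjusted p = 0.997 and 0.456). All 8 lysosomal enzymes that degrade the chain were above 0 at 5 days and 3 of 8 at 1 day, beside those same shares of all genes, with none called. Ids, a sulphatase, and Hgsnat, an acetyltransferase, were at 84.5 and 13.3 CPM per kb and differed by 0.06 and 0.01 at 5 days (edgeR adjusted p = 0.891 and 0.985), and Naglu, a glucosaminidase, differed by 0.18 (edgeR adjusted p = 0.663).

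Chondroitin sulphate is built on the same linkage, and 15 of 16 genes of its synthesis were tested. edgeR called 0 at either day, with 2 at an unadjusted p under 0.05 at 1 day and 3 at 5 days, beside 7.17% and 8.01% of all genes at those days. All 5 values were lower with Dnmt3a2, beside 46.0% at 1 day and 50.4% at 5 days of all genes at that p. Chpf, which takes part in polymerisation, and Ust, a 2-O sulphotransferase, were at 36.0 and 18.2 CPM per kb and differed by -0.05 and 0.09 at 5 days (edgeR adjusted p = 0.908 and 0.65). Chst15, which adds a further sulphate to the chain, differed by -0.19 (SE 0.07; edgeR adjusted p = 0.394).

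**Figure D5:**
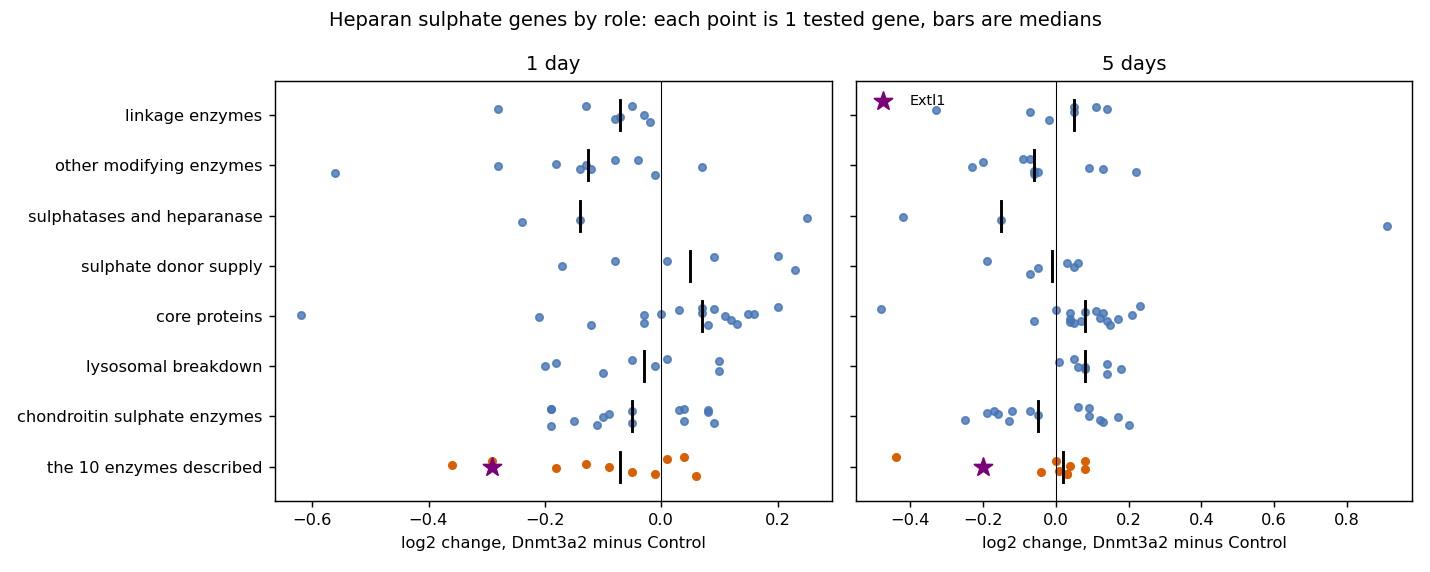
log2 change with Dnmt3a2 (x axis) at 1 day (left) and 5 days (right) of each tested gene (points) by role (y axis), with the median of each list as a bar and Extl1 as a star. The medians lie between -0.148 and 0.081 at both days, and Extl1 lies at -0.29 and -0.20.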

How the data were processed

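Total RNA of 16 libraries was sequenced on a BGISEQ-500 instrument, per the labels. Per the submitters' processing notes the tools were kallisto 0.4.6, Trim Galore 0.6.4 and edgeR 3.17, with build GRCm38.p6 and no roles stated. The authors deposited expected counts per gene, not normalised, with 26.2% of values not whole, and log2 CPM for 16907 genes, which recomputed from those counts to within 5.33e-15. The strand of counting and the step from transcripts to genes were not given in the sources used here.

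The members, lists and tests were chosen with earlier results of these data known. Expected counts as deposited were rounded, filtered with filterByExpr, scaled with TMM and fitted in edgeR 4.0.16 (R 4.3.3; robust quasi-likelihood, 1 term per group, no block). Benjamini-Hochberg adjustment covered 16899 genes, of which 16887 were named with GENCODE M21. Calls were made at an adjusted p under 0.05. The SE is the log2 change divided by the square root of F. Length is the union of exons. Correlations used log2 CPM with a prior count of 2 and 100000 permutations.

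Named were the 10 enzymes, the 5 genes most like Extl1 by each measure, and of each list the called genes, the 2 most abundant per kb and that with the smallest p at 5 days. Ndst4 was added after its values were seen. Alternatives were DESeq2 1.42.0 size factors and Wald test, no filter or a mean of at least 1 CPM, no robust estimation, limma-trend (limma 3.58.1), only the groups compared, a replicate block, 1 surrogate variable (sva 3.50.0), each library left out, and 3 interferon-rich or 2 choroid-rich libraries left out. Alternatives for correlations and for length were added after seeing the data. No library repeated another: the chi-square per gene was 4.41 to 43.64 over 120 pairs. The fit was tested on simulated data.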

Additional observations from a re-analysis of the deposited data

Results flagged for a closer look

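Ext1 in Control_1d replicate 3, at 43.4 CPM, stood apart from the other 3 libraries of its group, at 39.4 to 39.9 CPM, by more than Dixon's 95% critical value for 4 samples (0.829). It was 1 of 40 groups looked at, and chance alone marks about 1 in 20. The level lies within the range of Ext1 in other groups, 36.4 to 46.2 CPM.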

How the results depend on the processing

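Extl1 at 5 days kept its direction in 27 alternatives, at -0.21 to -0.18 on the log2 scale, with adjusted p from 0.00368 to 0.316. It was called by DESeq2's Wald test alone (-0.20, adjusted p = 0.00368), which raised the count of the 10 enzymes called at 5 days from 0 to 1. The count of other heparan sulphate genes called at 5 days rose from 0 to 1, Pxylp1, under DESeq2's Wald test, without the 3 interferon-rich libraries and without the 2 choroid-rich libraries. It ran from 0 to 1 with each library left out in turn, with 1 reached without Control_1d replicate 3. The correlations followed kept their sign. Of the differences followed and tested, none was called in the main fit, so no called one could change sign. Differences near 0 did: Ndst3 at 5 days, 0.04, was -0.13 and -0.07 in 2 alternatives, Ndst3 at 1 day, 0.01, was -0.08 to -0.01 in 5, Hs6st2 at 5 days, 0.03, was -0.09 and -0.01 in 2, and Hgsnat at 5 days, 0.01, was -0.02 and -0.01 in 2. Calls among the 10 enzymes between days and among the other heparan sulphate genes at 1 day stayed at 0 in the 27 alternatives. Over all genes, 54 were called at 5 days, against 143 by DESeq2, 94 with only the groups compared, 90 with 1 surrogate variable, 105 without the interferon-rich and 90 without the choroid-rich libraries, and 22 to 82 with each library left out. Between days with Dnmt3a2, 0 were called, against 44 by DESeq2, 6 with no filter, 1 with 1 surrogate variable and 0 to 1 with each library left out. At 1 day 15 were called, against 59 by DESeq2, 34 with no filter, 25 with 1 surrogate variable, 7 with only the groups compared and 6 to 22 with each library left out. Extl1 at 1 day ran from -0.31 to -0.27, and the difference between days from 0.07 to 0.11 over 26 alternatives. Leaving out Dnmt3a2_1d replicate 1 moved Hs3st2 at 1 day from -0.36 to -0.17.

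The labels' replicate numbers were not shown to pair libraries: the 24 pairs of equal number correlated at -0.086 to 0.38, 8 of them over 0.1, and 6 of 16 libraries correlated best with their own number. With a replicate block Extl1 at 5 days was -0.20 (edgeR adjusted p = 0.0949). Over all genes 65 were called at 5 days, with 0 of the 10 enzymes among them, and 17 at 1 day. With 4 libraries a group, the SE of 0.19 to 0.22 for Ndst3 and Hs3st2 limits what could be detected for them.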
